A study of Schizosaccharomyces pombe with 6 samples.

Results

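RNA that came down with *aal1*, a long non-coding RNA (lncRNA) of the fission yeast *Schizosaccharomyces pombe*, was compared between cells that overexpress *aal1* and cells that lack it. The comparison takes 4 of the 6 pull-down libraries of the series, 2 from *aal1-pOE* cells and 2 from *aal1∆* cells, chosen by the strain named in the labels. Of the 7001 RNAs in the table of counts, 1366 had enough counts to be tested, after *aal1* itself and the antisense RNA SPNCRNA.401 were set aside. The filter, scaling and fit used all 6 libraries, wild type included, and with only the 4 libraries 976 RNAs were tested. The *aal1-pOE* cells hold a plasmid from which the *P41nmt1* promoter, shut off by thiamine, transcribes *aal1*, in the 972h-/leu1-32 background. The *aal1∆* cells lack *aal1*. The paper describes 2 deletion strains made with CRISPR-Cas9 in the 972h- background, and others for its genetic screens and rescue experiments. Its pull-down methods name only *aal1∆*. Both strains were grown in the minimal medium EMMG and taken on Day 6 of stationary phase, when the cells no longer divide, from cultures described as grown and processed independently. No pull-down library from empty-vector cells was analysed here, so the plasmid, the *leu1-32* background and *aal1* itself cannot be told apart as sources of a difference. The labels do not say which of the study's deletion strains gave the *aal1∆* libraries.

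The assay, ChIRP-seq, fixes RNA and protein partners in place with formaldehyde, shears the lysate, and uses biotinylated DNA probes complementary to one RNA to lift that RNA and whatever is bound to it onto streptavidin beads. RNA that sticks to probes or beads without the bait also comes down, and a strain without the bait gives this background. lncRNAs can act by base-pairing with other RNAs or by holding proteins, and a partner RNA would be recovered better where the bait is present. An abundant RNA can be recovered from both. Better recovery and a higher level in the cells cannot be told apart from these libraries, since no total RNA of the same cultures was used here.

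*aal1* was counted 9540 and 20832 times in the *aal1-pOE* libraries, against 0 times in both *aal1∆* libraries. SPNCRNA.401, which is transcribed from the opposite strand of the same locus, was counted 630 and 846 times in *aal1-pOE*, against 0 times in both *aal1∆* libraries. Neither RNA overlapped between the strains, and the counts of the bait did not go against the label of any of the 4 libraries. Scaled to the totals without these 2 RNAs, and with 3 counts taken as the lowest level that each *aal1∆* library could show, *aal1* was at least 5064-fold higher and the counts assigned to SPNCRNA.401 at least 238-fold higher in *aal1-pOE*. Leaving out 1 library moved both bounds. They were 13447-fold and 633-fold without *aal1∆* replicate 2, the shallowest library, 3119-fold and 147-fold without *aal1∆* replicate 1, and 2567-fold and 170-fold without *aal1-pOE* replicate 2. For every 100 counts of *aal1* there were 6.6 of SPNCRNA.401 in *aal1-pOE* replicate 1 and 4.06 in replicate 2.

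Both genes lie on chromosome II of the assembly ASM294v3, *aal1* on the minus strand from 2580400 to 2581182 (783 nt) and SPNCRNA.401 on the plus strand from 2580438 to 2581248 (811 nt). They share 745 nt, so an RNA read from either strand of most of the locus falls in both genes, and only the strand assigned at counting separates them. The methods give a directional library kit, alignment with the strand setting FR and counting with the reverse setting, and whether the counts of SPNCRNA.401 are reads of *aal1* assigned to the other strand cannot be told apart from these counts. The wild-type pull-downs, with 28 and 147 counts of *aal1*, had 0 of SPNCRNA.401. The 3′ ends are shown because they are the stretches that only one of the genes covers. Capitals mark the 38 nt of *aal1* that lie outside SPNCRNA.401 and the 66 nt of SPNCRNA.401 that lie outside *aal1*, each after 40 nt of shared sequence in lower case, from RefSeq's ASM294v3.
aal1, chrII:2580400-2580477, minus strand: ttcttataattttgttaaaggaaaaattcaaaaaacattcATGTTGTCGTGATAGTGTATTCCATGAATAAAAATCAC
SPNCRNA.401, chrII:2581143-2581248, plus strand: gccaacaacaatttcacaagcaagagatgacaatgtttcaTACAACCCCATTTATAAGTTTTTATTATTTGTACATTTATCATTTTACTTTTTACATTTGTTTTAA
The bait thus fills part of one strain's libraries and none of the other's. *aal1* alone took 10.4% of all counts in *aal1-pOE* replicate 1 and 25.3% in replicate 2, which lowers every other share there, and *aal1* and SPNCRNA.401 were therefore left out of the totals for all values that follow.

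The *aal1-pOE* libraries held 91917 and 82299 counts in all, or 81747 and 60621 without these 2 RNAs, against 175263 and 40653 in the *aal1∆* libraries. A single count was thus worth 12.5 and 17.0 in *aal1-pOE*, against 6.81 and 26.5 in *aal1∆*, on the scale of normalised CPM, which is counts-per-million with TMM factors that level most RNAs between libraries. The *aal1∆* libraries differ the most in depth, and replicates differed by more than sampling noise, with a chi-square of 6.92 per degree of freedom in *aal1-pOE* (1216 RNAs) and 18.6 in *aal1∆* (894 RNAs). These are sums in which the RNAs with the most counts weigh most, so they do not give the spread of a typical RNA. The ribosomal RNA copy *SPRRNA.46*, with 31843 and 771 counts in *aal1∆*, makes up a large part of the 18.6. Collapsing of duplicate reads is not described, so repeated reads of one molecule may be counted, and the floors used here cover counting error only.

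Without the 2 RNAs of the locus, nuclear mRNA made up 60.7% and 61.6% of the counts in *aal1-pOE*, against 53.6% and 55.9% in *aal1∆*. Ribosomal RNA (rRNA) made up 34.4% and 34.9% in *aal1-pOE*, against 44.4% and 41.2% in *aal1∆*. The shares of the strains did not overlap in either class, with mRNA higher and rRNA lower in *aal1-pOE*. The means were 61.2% ± 0.668 in *aal1-pOE* and 54.8% ± 1.64 in *aal1∆* (SD, n = 2 each) for mRNA, and 34.7% ± 0.365 in *aal1-pOE* and 42.8% ± 2.27 in *aal1∆* (SD, n = 2 each) for rRNA. By exact permutation (two-sided), p was 0.333 for both classes, the smallest value that 2 libraries against 2 can give. The copy *SPRRNA.46* alone had 31843 of the 77781 rRNA counts of *aal1∆* replicate 1, and whether the gap holds without this copy was not tested. The wild-type libraries had 30.8% and 54.5% rRNA and 65.6% and 42.4% mRNA, on either side of all 4 libraries, so replicates of a strain can differ by more than this gap. The direction for mRNA depended on the total that was used. Of all counts, mRNA had a mean share of 49.7% in *aal1-pOE*, against 54.8% in *aal1∆*, and of the counts without rRNA, 93.6% in *aal1-pOE*, against 95.7% in *aal1∆*. Mitochondrially encoded RNA took 3.43% and 1.69% in *aal1-pOE*, against 1.01% and 1.61% in *aal1∆*, so that *aal1-pOE* replicate 1 stood apart and replicate 2 lay close to *aal1∆* replicate 2. Other RNAs with SPNCRNA identifiers took 1.32% and 1.51% in *aal1-pOE*, against 0.838% and 1.144% in *aal1∆*, with no overlap. This class takes in the structural RNAs *srp7*, *mrp1* and *rrk1*, which had 326 and 428 counts together in *aal1-pOE*, against 208 and 127 in *aal1∆*. Without these 3, a setting chosen after seeing the data, the share was 0.924% and 0.808% in *aal1-pOE*, against 0.719% and 0.831% in *aal1∆*, and the strains overlapped. They also overlapped as shares of all counts, at 1.176% and 1.115% in *aal1-pOE*, against 0.838% and 1.144% in *aal1∆*.

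**Figure D1:**
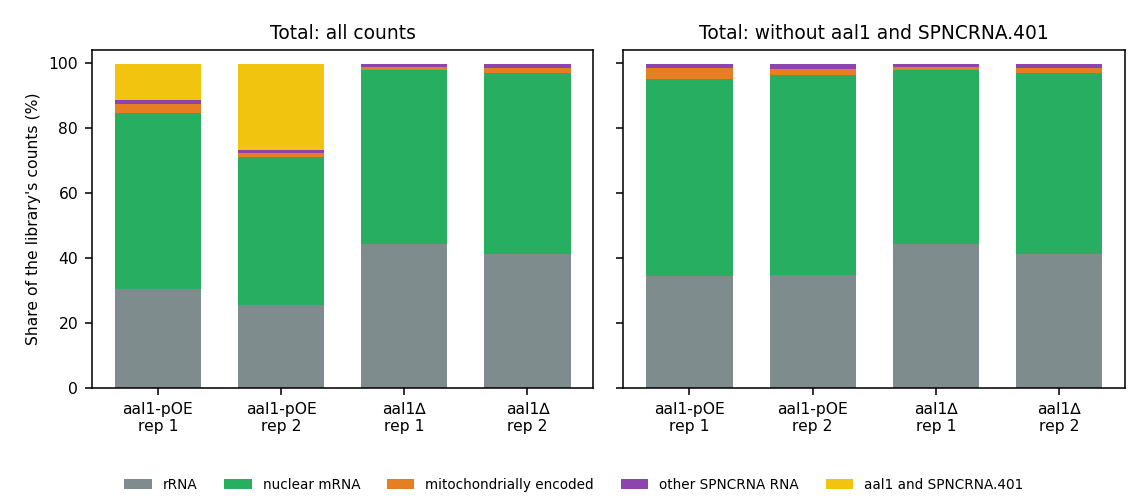
Share of each library's counts (%) by class of RNA, with all counts as the total (left) and without *aal1* and SPNCRNA.401 (right), for 2 *aal1-pOE* and 2 *aal1∆* libraries. With all counts as the total *aal1* alone takes 10.4% and 25.3% of the *aal1-pOE* libraries, and without them the mRNA share of both *aal1-pOE* libraries (60.7% and 61.6%) is above that of both *aal1∆* libraries (53.6% and 55.9%).

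Few of the 1366 RNAs passed the test for a difference between the strains. The median standard error of a log2 fold change was 0.894, so differences between the strains could be missed. With edgeR's quasi-likelihood test and Benjamini-Hochberg adjustment over all RNAs tested, 1 RNA (0.0732%) was higher in *aal1-pOE* and 1 (0.0732%) was lower, at an adjusted p under 0.05. The higher one was *atp9*, a mitochondrially encoded subunit of ATP synthase, and the lower one was *pdc202*, an mRNA of the pyruvate decarboxylase family, whose enzymes turn pyruvate into acetaldehyde during fermentation. At an unadjusted p under 0.05, 28 RNAs (2.05%) were higher and 41 (3%) were lower. The fitted log2 fold changes of the 1366 RNAs had a median of 0.01, with quartiles of -0.48 and 0.59, and 694 of them were above 0 and 672 below. Although 184 RNAs had a log2 fold change above 1 and 159 one below -1, only *atp9* and *pdc202* among these 343 passed. With all 4 libraries of these strains, 249 RNAs (18.2%) had both *aal1-pOE* values above both *aal1∆* values and 229 (16.8%) had both below, and these shares are the background for every such count given here.

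**Figure D2:**
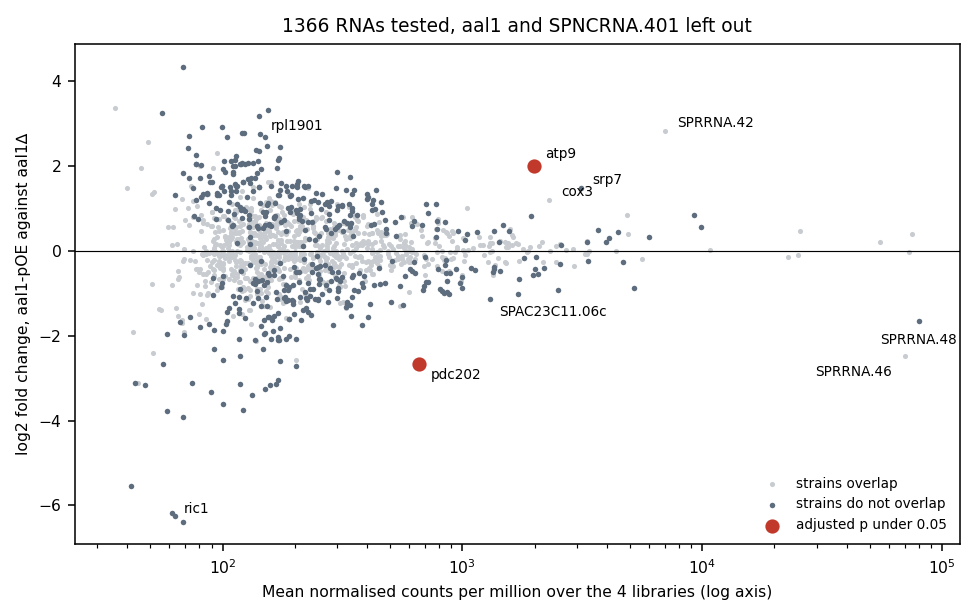
The log2 fold change of each of the 1366 RNAs tested (vertical axis, *aal1-pOE* against *aal1∆*) by its mean normalised CPM over the 4 libraries (horizontal log axis). Grey points are RNAs whose strains overlap, dark points RNAs whose strains do not, and the 2 large points are those with an adjusted p under 0.05, *atp9* at 1.99 and *pdc202* at -2.66.

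*atp9* was counted 303 and 146 times in the *aal1-pOE* libraries, against 68 and 45 times in the *aal1∆* libraries. After normalisation this was 3789 and 2482 CPM in *aal1-pOE*, against 463 and 1191 CPM in *aal1∆*. The strains did not overlap, with *aal1-pOE* higher, and the replicates of each strain were spread, with *aal1-pOE* replicate 1 the highest and *aal1∆* replicate 1 the lowest. The means were 3136 ± 924 CPM in *aal1-pOE* and 827 ± 514 CPM in *aal1∆* (SD, n = 2 each), and the log2 fold change was 1.99 (standard error 0.437, adjusted p = 0.0251, edgeR). *atp9* was called in 14 of the 18 alternative analyses that tested it. DESeq2 did not call it (adjusted p = 0.347), nor did edgeR with adjusted deviances (adjusted p = 0.0965), without *aal1-pOE* replicate 1 (adjusted p = 0.632) or without *aal1∆* replicate 1 (adjusted p = 0.388), over a range of 2.19e-05 to 0.632. In the 2 wild-type pull-downs, which carry *aal1* at its own locus, *atp9* had 142 and 167 counts, or 1442 and 2863 CPM. The value of wild-type replicate 2 lay above that of *aal1-pOE* replicate 2.

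The coding sequence of *atp9* is short, and is printed whole because *atp9* is the one RNA called higher. It spans 225 nt of the mitochondrial genome of ASM294v3, with its start and stop codons in capitals.
atp9, chrMT:17808-18032, plus strand: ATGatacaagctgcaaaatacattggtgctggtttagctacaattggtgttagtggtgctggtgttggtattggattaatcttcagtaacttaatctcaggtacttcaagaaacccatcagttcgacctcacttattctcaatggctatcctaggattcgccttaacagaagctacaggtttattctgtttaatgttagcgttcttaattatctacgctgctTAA
Each of the 167 stretches of 59 nt in it occurs once in the assembly, so reads of that length can be told from those of other genes. A read of 75 nt is left with 59 nt if 8 nt are clipped as a molecular tag and 8 more are trimmed at alignment, and with 67 nt after the second step alone, and each of the 159 stretches of 67 nt also occurs once.

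*pdc202* was counted 6 and 18 times in *aal1-pOE*, against 255 and 20 times in *aal1∆*. After normalisation this was 75.0 and 306 CPM in *aal1-pOE*, against 1737 and 529 CPM in *aal1∆*. All *aal1-pOE* values lay below all *aal1∆* values, but the 255 counts of *aal1∆* replicate 1 stood apart from the 20 of replicate 2. The log2 fold change was -2.66 (standard error 0.577, adjusted p = 0.0251, edgeR). Without *aal1∆* replicate 1 it was -1.45 (adjusted p = 0.597, edgeR) and without *aal1-pOE* replicate 1 it was -1.98 (adjusted p = 0.794, edgeR). Of 19 alternative analyses, 13 called *pdc202* lower, with adjusted p of 2.06e-05 to 0.794, and DESeq2 gave 0.347. The wild-type pull-downs had 48 and 33 counts, or 488 and 566 CPM. The gene (SPAC13A11.06) lies on the plus strand of chromosome I from 585597 to 587495, and all of its 1841 stretches of 59 nt occur once in the assembly.

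Its relative *pdc201*, which encodes another pyruvate decarboxylase, did not share this pattern. It had 1796 and 1224 counts in *aal1-pOE*, against 3958 and 787 in *aal1∆*, or 22460 and 20810 CPM in *aal1-pOE*, against 26967 and 20822 CPM in *aal1∆*. Its log2 fold change was -0.14 (standard error 0.462, adjusted p = 0.9999, edgeR), and it turned to 0.04 with library size as the only scaling. Of the 6 tested of 7 mRNAs for pyruvate decarboxylases and alcohol dehydrogenases, 0 were called higher and 1, *pdc202*, lower, and their median log2 fold change was 0.04, beside 0.01 over all RNAs.

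The RNAs nearest to the threshold were copies of the 18S rRNA, the RNA of the small ribosomal subunit, and they turned on single libraries. *SPRRNA.42* had 1927 and 37 counts in *aal1-pOE*, against 420 and 19 in *aal1∆*, so that 1 *aal1-pOE* library was high and the other lay within the *aal1∆* values. Its log2 fold change was 2.83 (standard error 0.678, adjusted p = 0.0605, edgeR). Without *aal1-pOE* replicate 1 it was -1.53 (adjusted p = 0.941, edgeR). *SPRRNA.46* had 1548 and 1355 counts in *aal1-pOE*, against 31843 and 771 in *aal1∆*, where replicate 1 was high. Its log2 fold change was -2.49 (standard error 0.664, adjusted p = 0.172, edgeR), and without *aal1∆* replicate 1 it was 0.13 (adjusted p = 0.952, edgeR). *SPRRNA.42* passed in 10 of 17 alternative analyses (adjusted p from 7.82e-11 to 0.9999) and *SPRRNA.46* in 6 of 17 (6.81e-06 to 0.9998).

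The separate counts of these copies are uncertain, because the copies are alike. The annotated *SPRRNA.42* spans the first 1390 nt of chromosome III and matches *SPRRNA.46* (2440994 to 2442835 of the same chromosome) at every position compared except 1 undetermined base of the assembly. All 1784 stretches of 59 nt in *SPRRNA.46* and 1273 of 1332 in *SPRRNA.42* occur elsewhere too, as do all 1776 and 1257 of 1324 stretches of 67 nt. When the copies were summed by product, a setting chosen after seeing the data, the 5 copies of the 18S rRNA had 72247 and 65192 CPM of the plain library totals (without TMM factors) in *aal1-pOE*, against 213165 and 49467 in *aal1∆*. The strains overlapped, with 1 *aal1∆* library above and 1 below both *aal1-pOE* libraries, and the log2 fold change of the sum was -1.13 (standard error 0.480, adjusted p = 0.916, edgeR). The 3 copies of the 28S rRNA, the RNA of the large subunit, had 142195 and 188516 on the same scale in *aal1-pOE*, against 176141 and 262367 in *aal1∆*, again with overlap (log2 fold change -0.54, standard error 0.510, adjusted p = 0.998, edgeR). Calls with the copies summed were the same 2, *atp9* and *pdc202*.

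Among the 10 RNAs with the most counts over the 4 libraries, 7 had rRNA identifiers. The 28S copy *SPRRNA.48* was the one of these whose strains did not overlap, with 2505 and 2732 counts in *aal1-pOE*, against 10704 and 6477 in *aal1∆* (log2 fold change -1.65, standard error 0.618, adjusted p = 0.942, edgeR). All of its 3427 stretches of 59 nt occur elsewhere too, as do those of *SPRRNA.47* and *SPRRNA.49*. The separate counts of the 28S copies are thus uncertain, like those of the 18S copies, and their sum overlapped between the strains. The 28S copies *SPRRNA.47* and *SPRRNA.49* and the 18S copy *SPRRNA.43* had log2 fold changes of -0.03, 0.21 and -0.10, and 2 rRNA identifiers without an annotated product in the reference, SPRRNA.01 and SPRRNA.02, had 0.40 and 0.47. Of the other 3, *pdc201* is described above. The mRNA *lsd90* had 10117 and 11612 CPM in *aal1-pOE*, against 12094 and 9498 CPM in *aal1∆*, where the *aal1∆* libraries bracket the *aal1-pOE* libraries (log2 fold change 0.01, standard error 0.414). SPMIT.01, an identifier of the mitochondrial genome with no annotated product here, had 14169 and 9317 CPM in *aal1-pOE*, against 6772 and 9181 CPM in *aal1∆*, a narrow gap (log2 fold change 0.56, standard error 0.423, adjusted p = 0.9999, edgeR). The median standard error of a log2 fold change was 0.481 among the 342 RNAs with the most counts (117 to 35517 over the 4 libraries), where both calls fell, and 1.42 among the 347 with the fewest (7 to 40).

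The 4 libraries did not group by strain. Over the 1366 RNAs, on the scale log2(normalised CPM + 10), the median absolute difference was 0.74 between the *aal1-pOE* libraries and 0.81 between the *aal1∆* libraries. Between the strains it was 0.60 for *aal1-pOE* replicate 1 and *aal1∆* replicate 1, 0.69 for *aal1-pOE* replicate 2 and *aal1∆* replicate 1, and 0.89 and 0.91 for the 2 *aal1-pOE* libraries against *aal1∆* replicate 2. Both pairs of an *aal1-pOE* library with the deepest library, *aal1∆* replicate 1, thus lay closer than the replicates of either strain, and all pairs with the shallowest, *aal1∆* replicate 2, lay farthest apart. Among the 196 RNAs with 200 counts or more, all 6 pairs were nearly alike, at 0.41 within *aal1-pOE*, 0.39 within *aal1∆* and 0.39 to 0.44 between strains. Across the 1366 RNAs, which are not independent replicates and share library and depth, Pearson's r was 0.68 within *aal1-pOE*, 0.66 within *aal1∆* and 0.52 to 0.77 between strains.

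**Figure D3:**
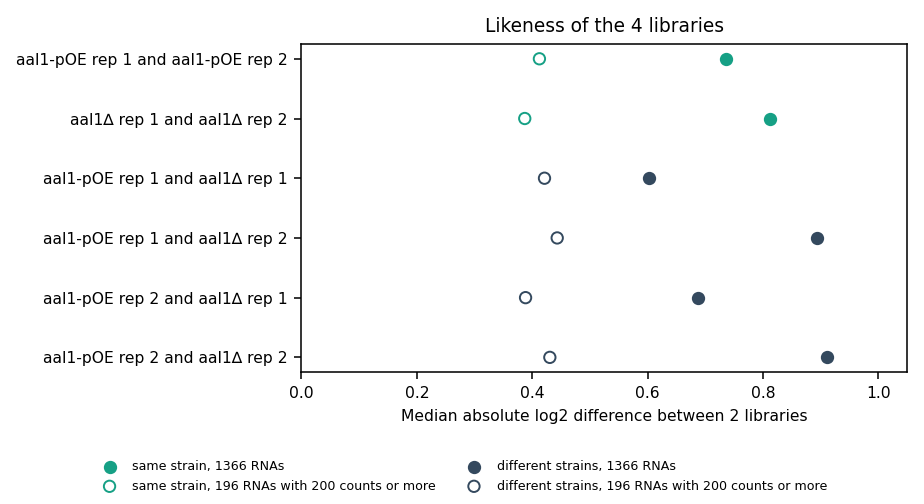
Median absolute log2 difference (horizontal axis, log2 of normalised CPM + 10) for each pair of the 4 libraries, over all 1366 RNAs tested (filled) and over the 196 with 200 counts or more (open). The pairs within a strain lie at 0.74 and 0.81 and the pairs between strains at 0.60 to 0.91.

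The RNAs that were higher in both *aal1-pOE* libraries, ordered by p, began with *atp9* and the structural RNA *srp7*, the RNA scaffold of the signal recognition particle, which guides new secretory proteins to the membrane. *srp7* had 3001 and 6138 CPM in *aal1-pOE*, against 858 and 2487 CPM in *aal1∆*. The strains did not overlap, although each strain's replicates were far apart, and the log2 fold change was 1.49 (standard error 0.530, adjusted p = 0.942, edgeR). It passed in 2 of 19 alternative analyses, without *aal1∆* replicate 2 (2.34, adjusted p = 0.0138, edgeR) and with rRNA and mitochondrial genes left out (1.50, adjusted p = 1.74e-05, edgeR), over a range of adjusted p up to 0.9999. The wild-type pull-downs had 127 and 599 counts of it, or 1290 and 10269 CPM, the second above both *aal1-pOE* libraries.

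Next came *rpl1901*, an mRNA of the large ribosomal subunit, with 28 and 9 counts in *aal1-pOE*, against 6 and 1 in *aal1∆* (log2 fold change 2.76, standard error 1.01). The DNA mismatch repair mRNA *msh6* had 275 and 697 CPM in *aal1-pOE*, against 177 and 52.9 CPM in *aal1∆* (1.87, standard error 0.704). SPAC23A1.14c, annotated as a cystathionine gamma-synthase-like protein, had 22 and 17 counts in *aal1-pOE*, against 4 and 1 in *aal1∆* (3.31, standard error 1.27). The replicates of *msh6* spread in both strains. SPAC23A1.14c had enough counts to be tested only through its *aal1-pOE* libraries, so being high there was a condition of its being tested. Its *aal1∆* values rest on 4 and 1 counts. The glycolytic enzyme mRNA *tpi1* (triosephosphate isomerase) had 238 and 816 CPM in *aal1-pOE*, against 170 and 132 CPM in *aal1∆* (1.73, standard error 0.712), and the gap between the strains was smaller than that within *aal1-pOE*. The mRNA *rar1*, for an enzyme that joins methionine to its transfer RNA, had 16 and 20 counts in *aal1-pOE*, against 9 and 0 in *aal1∆* (2.68, standard error 1.13). Without its *aal1-pOE* libraries *rar1* would not have passed the filter either, so being high there was a condition of its being tested. The mRNA *lrs1*, for the leucine enzyme, had 1163 and 969 CPM in *aal1-pOE*, against 559 and 423 CPM in *aal1∆* (1.09, standard error 0.459). Neither passed (adjusted p = 0.942 for both, edgeR).

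Of the RNAs that were lower in both *aal1-pOE* libraries, the first after *pdc202* was SPAC23C11.06c, annotated as a hydrolase, with 888 and 748 CPM in *aal1-pOE*, against 2078 and 1482 CPM in *aal1∆*. Its strains did not overlap, yet its log2 fold change of -1.13 (standard error 0.396) had an adjusted p of 0.942 (edgeR). The uncharacterized SPAC32A11.02c had 950 and 1326 CPM in *aal1-pOE*, against 2882 and 1693 CPM in *aal1∆* (-1.03, standard error 0.391), and the uncharacterized SPAP27G11.12 had 138 and 221 CPM in *aal1-pOE*, against 715 and 450 CPM in *aal1∆* (-1.74, standard error 0.626). Low counts made up most of the rest. The kinesin-8 motor mRNA *klp5* had 2 and 2 counts in *aal1-pOE*, against 18 and 17 in *aal1∆* (-3.15, standard error 1.19). The sulfate adenylyltransferase mRNA *sua1*, for the first step of sulfate assimilation, had 4 and 3 counts in *aal1-pOE*, against 26 and 20 in *aal1∆* (-2.71, standard error 1.07). The raw counts of *klp5* and *sua1* differ in the same direction although *aal1∆* replicate 2 is the shallowest library. Without its *aal1∆* libraries *sua1* would not have passed the filter, so being high there was a condition of its being tested. Of the RNAs tested, 4 had no count in either *aal1-pOE* library. Among them, *mpo1*, picked with its values in view, was counted 9 and 8 times in *aal1∆*, and *ric1* 5 and 8 times. With each *aal1-pOE* library set to 3 counts, the ratio of the mean levels was 2.88 for *mpo1* and 2.61 for *ric1*. These ratios are not lower bounds, because they leave out the counting error of *aal1∆*. The 8 counts of each RNA in *aal1∆* replicate 2, the shallowest library, weigh most in them. None of the RNAs named in these lower and higher groups passed the test, except *atp9* and *pdc202*.

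**Figure D4:**
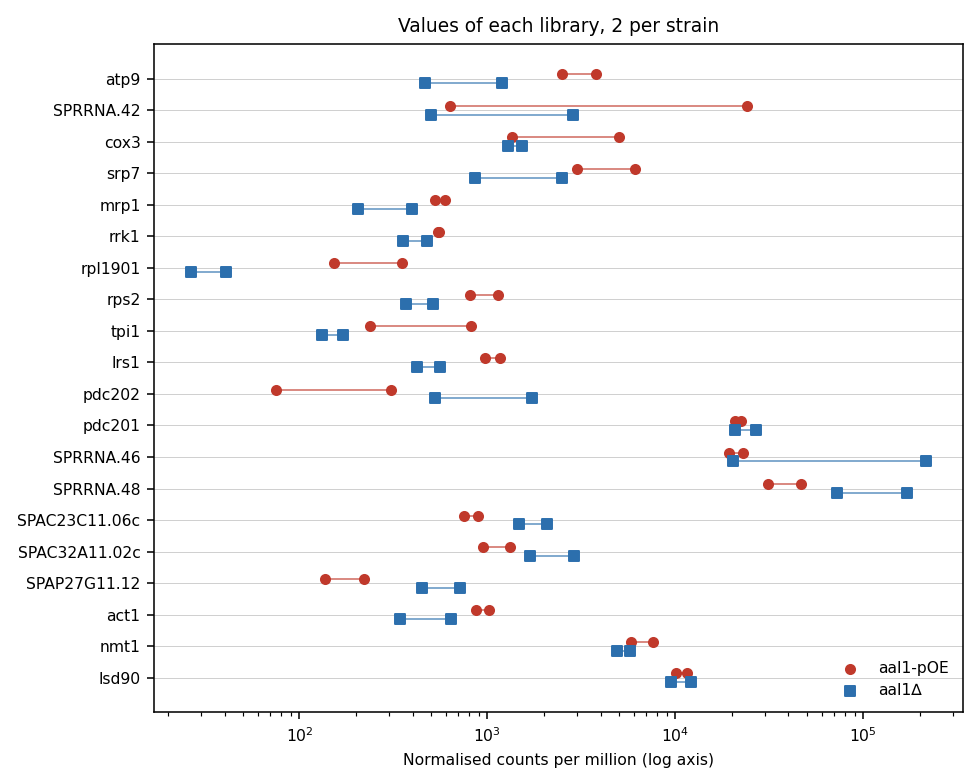
Normalised CPM (horizontal log axis) of 20 RNAs in each library, with *aal1-pOE* as circles and *aal1∆* as squares, a line joining the 2 libraries of a strain. *atp9* lies at 3789 and 2482 in *aal1-pOE*, against 463 and 1191 in *aal1∆*, *pdc202* at 75.0 and 306 in *aal1-pOE*, against 1737 and 529 in *aal1∆*, and *SPRRNA.42* and *SPRRNA.46* each have 1 library far from the other 3.

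The mitochondrial genome encodes core subunits of the respiratory chain and the RNAs of the mitochondrial ribosome, and 6 of its 37 RNAs in the list were tested, *atp9* among them. *cox3*, a subunit of cytochrome c oxidase, had 5040 and 1360 CPM in *aal1-pOE*, against 1288 and 1535 CPM in *aal1∆*. One *aal1-pOE* library was high and the other lay within the *aal1∆* values (log2 fold change 1.19, standard error 0.426, adjusted p = 0.942, edgeR). Without *aal1-pOE* replicate 2, *cox3* passed at 1.90 (adjusted p = 0.0130, edgeR), and without *aal1-pOE* replicate 1 its value was -0.068. The median log2 fold change of the 6 tested RNAs was 0.93, beside 0.01 over all RNAs, and 5 of the 6 were positive. Without *aal1-pOE* replicate 1 the median was 0.07, and without *aal1-pOE* replicate 2 it was 1.70. The summed level of all 37 was 34289 and 16875 CPM of the plain library totals in *aal1-pOE*, against 10076 and 16063 in *aal1∆*, and its part in the result for *atp9* was not tested.

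The ribosomal protein mRNAs had 0 calls in either direction with edgeR, and DESeq2 called 0 of all RNAs. At an unadjusted p under 0.05, 3 small-subunit mRNAs were higher and 0 lower, and 2 large-subunit mRNAs were higher and 1 lower, beside 2.05% higher and 3% lower of all RNAs tested. Of 55 small-subunit mRNAs, 44 were tested, and 14 (31.8%) lay above without overlap and 4 (9.09%) below, beside 18.2% and 16.8% of all RNAs tested. Their median log2 fold change was 0.54 and 37 of the 44 were positive. Of 83 large-subunit mRNAs, 49 were tested, 16 (32.7%) lay above and 5 (10.2%) below, and the median was 0.22. With each library left out in turn the median ranged from 0.29 to 0.63 for the small subunit and from 0.08 to 0.44 for the large, while the median of all RNAs ranged from -0.11 (without *aal1-pOE* replicate 1) to 0.32 (without *aal1∆* replicate 1). Without *aal1∆* replicate 1 the small-subunit median was 0.59 and the large-subunit median was 0.08, below that of all RNAs. The summed level of the small-subunit list was 10227 and 13708 CPM of the plain library totals in *aal1-pOE*, against 6990 and 8708 in *aal1∆*, with no overlap, and that of the large-subunit list was 15071 and 16512 in *aal1-pOE*, against 10059 and 15841 in *aal1∆*. Of single members, *rps2* had 813 and 1139 CPM in *aal1-pOE*, against 511 and 370 CPM in *aal1∆* (1.11, standard error 0.478), and *rpl501* went the other way, with 275 and 204 CPM in *aal1-pOE*, against 484 and 688 CPM in *aal1∆* (-1.25, standard error 0.568). Neither passed (adjusted p = 0.942 and 0.968, edgeR). The study names *rpl1901*, *rpl1802*, *rps502* and *rps27*, with *srp7* and the small nucleolar RNA *snR30*, for these same pull-downs, so their direction is not independent evidence. *rpl1802* had 450 and 544 CPM in *aal1-pOE*, against 184 and 212 CPM in *aal1∆* (1.34, standard error 0.635, adjusted p = 0.968, edgeR). *rps502* had 250 and 425 CPM in *aal1-pOE*, against 157 and 52.9 CPM in *aal1∆* (1.50, standard error 0.747, adjusted p = 0.968, edgeR), and 22.9% of its stretches of 59 nt occur elsewhere in the assembly. The strains did not overlap for either. *rps27* had 1 and 8 counts in *aal1-pOE*, against 9 and 1 in *aal1∆*, which overlap (0.57, standard error 1.55, adjusted p = 0.9999, edgeR).

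Gene length was compared over all RNAs. Among the 340 shortest of the 1357 tested RNAs with a position (165 to 1721 nt), 77 (22.6%) lay above in *aal1-pOE* and 37 (10.9%) below, with a median log2 fold change of 0.17, while in groups of 339 of rising length the medians were -0.04, -0.06 and 0.04.

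Stable non-coding RNAs other than rRNA were few. The RNA of RNase MRP, *mrp1*, which processes precursor rRNA, had 525 and 595 CPM in *aal1-pOE*, against 204 and 397 CPM in *aal1∆* (log2 fold change 0.98, standard error 0.598). The RNA of RNase P, *rrk1*, which trims the 5′ ends of transfer RNAs, had 550 and 544 CPM in *aal1-pOE*, against 354 and 476 CPM in *aal1∆* (0.43, standard error 0.570). With *srp7* these were all 3 members of their list, and none passed the test. All 3 (100%) lay above without overlap, beside 18.2% of all RNAs tested. Only 12 of the 1527 RNAs on the lncRNA list could be tested, among them these 3, and their median was -0.54. The fits that left out a library tested other members, with 23 tested and a median of 0.57 without *aal1∆* replicate 1, where all RNAs had 0.32, and 26 tested and medians of 0.067 and 0.076 without a wild-type library, so the members and the library change together. *SPNCRNA.1626*, the best counted of those named as lower, had 6 and 3 counts in *aal1-pOE*, against 23 and 15 in *aal1∆* (-2.03, standard error 1.03, adjusted p = 0.968, edgeR). It would not have passed the filter without its *aal1∆* libraries, so being high there was a condition of its being tested. Of the 60 small nucleolar and small nuclear RNAs 3 were tested, and of the 171 transfer RNAs 0. *snR30*, a small nucleolar RNA of rRNA processing, had 200 and 238 CPM in *aal1-pOE*, against 218 and 159 CPM in *aal1∆*, with overlap (0.17, standard error 0.692, adjusted p = 0.9999, edgeR).

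All 13 glycolytic enzyme mRNAs were tested, and 10 had positive log2 fold changes, with a median of 0.18. *pgk1* (phosphoglycerate kinase) had 4139 and 4438 CPM in *aal1-pOE*, against 3298 and 2831 CPM in *aal1∆* (0.48, standard error 0.386), while *eno102* (enolase) had 1251 and 1904 CPM in *aal1-pOE*, against 2500 and 2196 CPM in *aal1∆* (-0.58, standard error 0.395). The strains did not overlap for either and the directions were opposite. Hexose transporters (5 of 8 tested) had a median of 0.45, and of -0.13 without *aal1-pOE* replicate 1. Of the nuclear genes of respiration, 13 of 15 for the tricarboxylic acid cycle and 18 of 33 for the respiratory chain and ATP synthase were tested, with medians of -0.04 and 0.02. *atp17*, a nuclear subunit of the ATP synthase that *atp9* belongs to, had 12 and 22 counts in *aal1-pOE*, against 6 and 0 in *aal1∆* (3.17, standard error 1.39, adjusted p = 0.960, edgeR). It would not have passed the filter without its *aal1-pOE* libraries, so being high there was a condition of its being tested.

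Heat shock and chaperone mRNAs (14 of 18 tested) had a median of -0.10. Without overlap, 0 members (0%) lay above and 3 (21.4%) below, beside 18.2% and 16.8% of all RNAs tested. *hsp104*, a disaggregase, had 275 and 731 CPM in *aal1-pOE*, against 845 and 926 CPM in *aal1∆* (-0.83, standard error 0.482). For defence against oxidants 7 of 22 were tested, with a median of -0.40. The catalase mRNA *ctt1* had 438 and 680 CPM in *aal1-pOE*, against 920 and 1243 CPM in *aal1∆* (-0.94, standard error 0.458, adjusted p = 0.968, edgeR). The vacuolar protease mRNA *isp6*, which is known for its rise on nitrogen starvation, had 1826 and 1547 CPM in *aal1-pOE*, against 2610 and 2275 CPM in *aal1∆* (-0.54, standard error 0.373). The medians of the heat shock, oxidant defence and vacuolar lists each changed sign in at least 1 of the fits that left out a library.

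**Figure D5:**
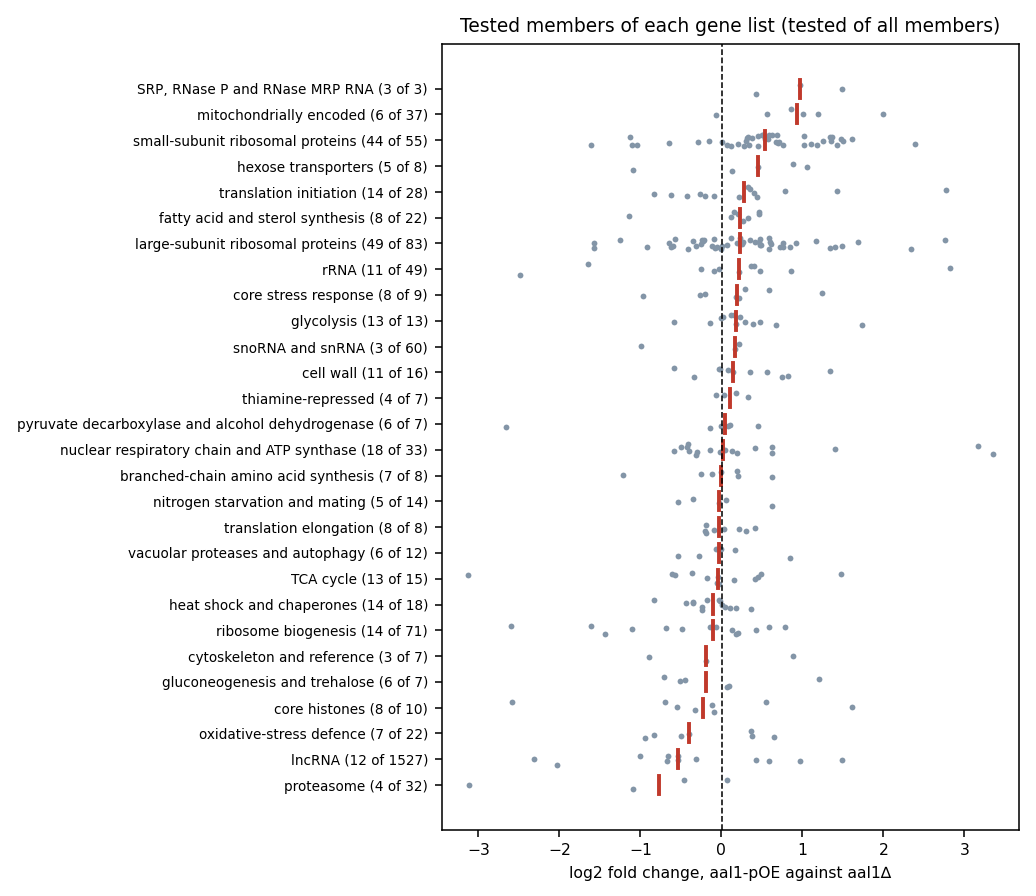
The log2 fold change (*aal1-pOE* against *aal1∆*, horizontal axis) of each tested member of 28 gene lists, with the list's median as a vertical bar and the median of all 1366 RNAs, 0.01, as a dashed line. The medians run from -0.78 for proteasome mRNAs (4 of 32 tested; 1.77 over 9 without *aal1∆* replicate 1 and 0.01 over 32 with no filter) to 0.98 for the RNAs of the signal recognition particle, RNase P and RNase MRP (3 of 3).

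Genes tied to the plasmid and its promoter were read in the same way. *nmt1*, the thiamine synthesis gene whose promoter in modified form drives *aal1* on the plasmid, had 5802 and 7600 CPM in *aal1-pOE*, against 5764 and 4868 CPM in *aal1∆*, a gap between the strains smaller than the spread of either (0.33, standard error 0.404, adjusted p = 0.9999, edgeR). *leu1*, mutated in the *aal1-pOE* background, had 9 and 1 counts in *aal1-pOE*, against 10 and 2 in *aal1∆*, too few to be tested. The actin mRNA *act1* had 875 and 1020 CPM in *aal1-pOE*, against 640 and 344 CPM in *aal1∆* (0.89, standard error 0.467, adjusted p = 0.968, edgeR). Within 50 kb of *aal1*, 13 RNAs were tested, and edgeR called 0 (lowest unadjusted p = 0.142). Of the 13, 2 (15.4%) lay above and 2 (15.4%) below in *aal1-pOE*, beside 18.2% and 16.8% of all RNAs tested. By chromosome, the medians were -0.01 on I, 0.01 on II and 0.03 on III.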

How the data were processed

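The authors deposited raw read counts per gene for 6 pull-down libraries, from 2 *aal1-pOE*, 2 *aal1∆* and 2 wild-type cultures. Per the methods, directional libraries were sequenced as 75 nt pairs, reads were processed as for the study's RNA-seq, where 8 nt molecular tags were clipped into the read names, 8 nt were trimmed from the 5′ end at alignment with HISAT2 2.2.1, and genes were counted with HTSeq 0.12.3. Names and coordinates came from RefSeq (ASM294v3), which matched 6852 of 7001 identifiers; the sources used here do not give the genome build used for counting.

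*aal1* and SPNCRNA.401 were left out of library totals, normalisation and fit. edgeR 4.0.16 (quasi-likelihood, TMM, filterByExpr, all 6 libraries in one fit) compared *aal1-pOE* with *aal1∆*, adjusted by Benjamini-Hochberg. The fit was also run on simulated counts with known changes. Those counts were not given single-library outliers like that of *SPRRNA.46*, so they do not show how the test behaves with them. P-values measure the spread between these 6 libraries, wild type included. Most of it is shared across RNAs, with 43.3 prior degrees of freedom against 3 from an RNA's own libraries. Standard errors are the log2 fold change over the root of F. Named RNAs are those called, the 10 with the smallest p in each direction without overlap, the 10 with the most counts, up to 3 members of each list by smallest p, the 3 next past the threshold, *leu1*, *nmt1*, *act1* and *ppb1*, and 6 RNAs that the study names for these pull-downs. The members and lists were chosen with earlier results of these data known, and 1 entry annotated as a meiotic recombination protein was removed from the list of structural RNAs after seeing the data. DESeq2 1.42.0, other scalings, filters and left-out libraries were tried.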

Additional observations from a re-analysis of the deposited data

How the results depend on the processing

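The counts of calls are small and moved with most choices. Against 1 higher and 1 lower call, the numbers were 2 and 1 with *aal1* and SPNCRNA.401 kept or with RLE factors. They were 2 and 0 with library size only, and 2 and 2 with upper-quartile factors or no filter. A filter of at least 10 counts in at least 2 libraries, looser here with 1502 RNAs tested against 1366, also gave 2 and 2. DESeq2 gave 0 and 0 (19 and 34 at an unadjusted p under 0.05), as did adjusted deviances (38 and 43). Without rRNA and mitochondrial genes the numbers were 1 and 2. In that setting *srp7* was higher, and *pdc202* and *gld1*, named after its values were seen, were lower. With only the 4 libraries, a robust spread or summed rRNA copies the numbers were 1 and 1. Leaving out 1 library gave 0 to 3 higher and 0 to 2 lower. Same-numbered libraries did not deviate together over the RNAs tested (correlations of -0.05, 0.08 and 0.05). With a median of 63 counts over the 4 libraries, counting noise could hide a shared batch. These correlations therefore cannot tell whether the numbers pair the samples. With a replicate block the calls were 1 and 0, and *pdc202* had an adjusted p of 0.0621 (edgeR). Library size as the only scaling moved the median of all RNAs to 0.19, against 0.01, and leaving out *aal1∆* replicate 1 or *aal1-pOE* replicate 1 to 0.32 or -0.11.

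The difference in mRNA share (*aal1-pOE* minus *aal1∆*, 6.41 points) was -5.06 of all counts and -2.10 without rRNA, and 5.25 to 7.57 with 1 library left out. For rRNA (-8.12) it was -14.6 of all counts and -9.73 to -6.52 with 1 left out, for mitochondrial RNA 0.381 to 2.12, and for other SPNCRNA RNAs (0.427) 0.155 of all counts, 0.0905 without *srp7*, *mrp1* and *rrk1*, and 0.275 to 0.580. The bounds ranged from 2567 to 13447 for *aal1* and 147 to 633 for SPNCRNA.401 with 1 library left out, and were 3926 and 188 of all counts.

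Of the 105 RNAs that the rule names and edgeR tested, 75 kept the sign of the log2 fold change in all alternatives that tested them and 30 did not. Values follow for 12 of the 30, those among the 82 RNAs chosen for full tables after their values were seen. With 1 library left out the values ran from -3.42 to 0.13 for *SPRRNA.46*, -1.53 to 4.73 for *SPRRNA.42*, -0.54 to 0.70 for *SPRRNA.47*, -0.046 to 0.57 for *SPRRNA.49*, -0.55 to 0.25 for *SPRRNA.43*, -0.38 to 0.13 for *pdc201*, -0.22 to 0.27 for *lsd90*, -0.065 to 0.53 for the small nucleolar RNA *snR30*, -0.068 to 1.90 for *cox3*, -0.25 to 1.70 for the mitochondrial SPMIT.05, -6.66 to 0.34 for the phosphatase mRNA *ppb1* and -1.78 to 1.43 for the ribosomal protein mRNA *rps27*. *SPRRNA.47* was also 0.0056 with RLE factors, 0.0055 with DESeq2 and 0.17 with library size only, *SPRRNA.43* 0.076 and *pdc201* 0.036 with library size only, and *lsd90* -0.052 with upper-quartile factors, -0.035 with no filter and -0.0073 with only the 4 libraries. The cause was not tested. The tested RNAs had a median of 63 counts over the 4 libraries and a median standard error of 0.894.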
